A study of Mus musculus with 768 samples.

Results

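The immediate early and heat-shock response genes were taken as a module of 38 named genes and looked up in the count table by matching its Ensembl identifiers to mouse gene symbols. All 38 were found among the 25700 genes of the table. They fall into 9 subunits of the transcription factor AP-1 (Fos, Fosb, Fosl1, Fosl2, Jun, Junb, Jund, Atf3 and Maff), 11 other immediate early transcription factors, 6 heat-shock genes, 8 feedback regulators, and a remaining set of 4 genes made up of the immediate early response genes Ier2, Ier3 and Ier5 together with Rhob. The rule for membership was a list of gene names with no threshold on a measured value, but the list was drawn up with earlier results of these data known.

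The cells were single Schwann cells from the sciatic nerves of mice at postnatal day 60, sorted into 2 plates of 384 wells and sequenced with the Smart-Seq2 protocol, which reads the whole length of transcripts and carries no molecular identifiers. All mice carried a Cre transgene that is active in the Schwann lineage (-/+), together with ReYFP Tg/+ and βAct-DsRed Tg/+. Cells of that lineage therefore express eYFP, and eYFP-positive cells were sorted after the nerves had been minced and dissociated with warm enzymes. Each plate held cells of several pooled mice and was therefore counted as 1 sample. There was no untreated or treated arm, and the comparisons were between the classes of Schwann cells on each plate and between the plates.

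Immediate early genes are transcribed within minutes of a stimulus without the need for new protein. Fos and Jun family proteins pair up as AP-1 and bind the promoters of other genes, whereas phosphatases such as Dusp1, mRNA-destabilising proteins such as Zfp36 and inhibitors such as Nfkbia and Socs3 are induced alongside them and shut the signal down. Heat-shock genes encode chaperones and are driven mainly by the factor Hsf1 when proteins misfold. Both programmes are known to respond to tissue dissociation, and AP-1 factors, Jun above all, are also part of the Schwann cell response to nerve injury.

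Of the cells, 340 in plate 1 and 334 in plate 2 had at least 1500 detected genes and were kept. Median depth was 158689 reads and 3442 genes per kept cell in plate 1 and 452484 reads and 2295 genes in plate 2, and the median mitochondrial share was 2.77% and 1.37%. Clusters were built without the members and named from marker genes as mSC-like (myelinating Schwann cells, 148 cells in plate 1 and 72 in plate 2) or nm(R)SC-like (Schwann cells of Remak bundles, which do not myelinate, 192 and 262 cells). Markers of immune cells summed to at most 20.4 CPM (reads of a gene per 1000000 reads) in any class and plate, with 5 of 7 under 1 CPM throughout, and 0 of 6 endothelial markers reached 50 CPM. Markers of pericytes and vascular smooth muscle summed to 11.6 to 120 CPM, with 1 of 5 at 50 CPM or more in mSC-like cells of plate 1 and 0 elsewhere. Fibroblast and perineurial markers summed to 411 to 1026 CPM. Of these 8 markers, 2 and 3 reached 50 CPM in mSC-like cells of plates 1 and 2, and 3 and 2 in nm(R)SC-like cells. Most mSC-like cells of the 2 plates lay in different clusters. A cluster led by Mfap5 held 92 cells of plate 1 and 20 of plate 2, and a cluster led by Ncmap and Pllp held 56 and 52.

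The 38 members together took 1.13% of all reads in mSC-like cells of plate 1, 3.27% in mSC-like cells of plate 2, 1.77% in plate 1 nm(R)SC-like cells and 2.18% in plate 2 nm(R)SC-like cells. Values below keep this order of the 4 sums of cells. The AP-1 factors carried most of these reads, with 0.686%, 2.07%, 0.939% and 1.04%. The other immediate early factors took 0.210%, 0.561%, 0.421% and 0.607%, the feedback regulators 0.138%, 0.422%, 0.258% and 0.270%, and the heat-shock genes 0.0761%, 0.162%, 0.0986% and 0.198%. In each of the 5 role groups mSC-like cells of plate 1 had the lowest share of reads.

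Fos, the inducible partner of Jun in AP-1, was the most abundant member on the per-length scale, with a mean of 3830.3 CPM per kilobase of exon over the 4 sums. Junb followed with 557, then Klf6 with 352, Jun with 294, Nr4a1 with 291, Btg2 with 275, Nfkbia with 264, Ier2 with 263 and Hspa8 with 247 CPM per kilobase. The means from Jun to Hspa8 lay closer together than the spread of each of these genes over its own 4 sums. Junb overlaps an exon of Prdx2 on the other strand, and since the strand setting of the counting is not given in the sources used here its reads may include some of Prdx2. At the other end, 5 members stayed under a mean of 10 CPM, namely Fosl1, Maff, Nr4a3, Cebpb and Hsph1. Fosl1 was listed at 0 reads in mSC-like cells of plate 1.

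**Figure D1:**
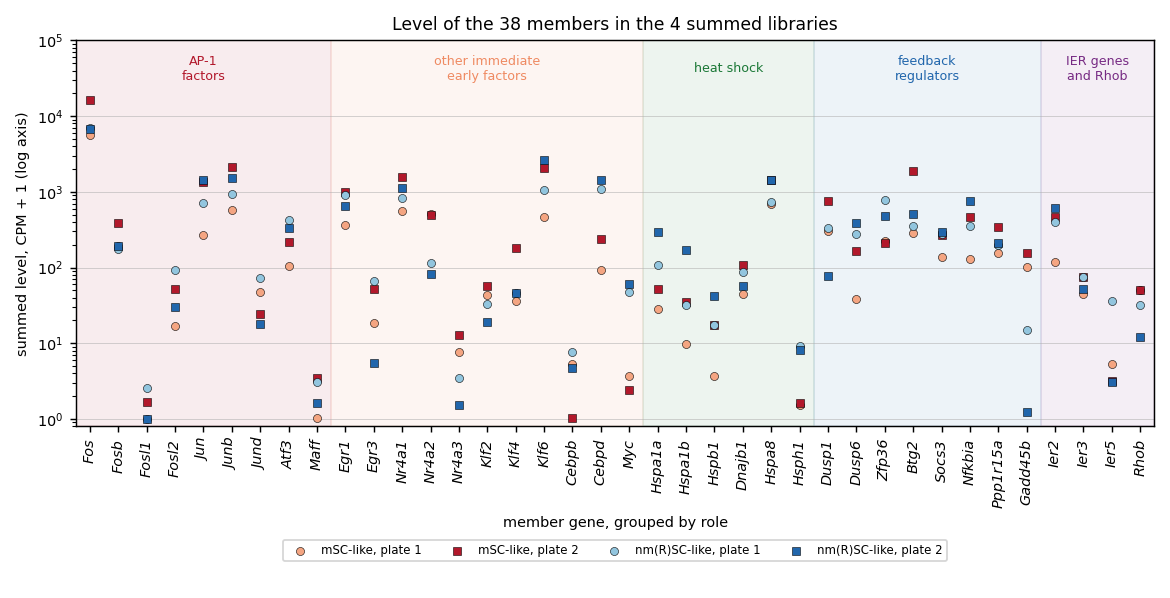
Summed level of each of the 38 members in the 4 sums, in CPM plus 1 on a log axis, with genes grouped by role. Circles are plate 1 and squares plate 2, red tones are mSC-like and blue tones nm(R)SC-like cells. Fos stands above every other member in each sum, and Nr4a2, Gadd45b, Cebpd and Myc show the 2 classes apart on both plates.

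Promoters are shown for members whose levels recur below: Fos as the most abundant member, Btg2 and Zfp36 as the feedback regulators closest to it across cells, and the pair Hspa1a and Hspa1b because their sequences bear on how they can be counted. Each runs from 250 bases before to 50 bases after the RefSeq start, 5′ to 3′ on the gene's own strand, build GRCm38.p6. Fos lies at chr12:85473640-85473939 (plus strand), with the letters TGACG, the short form of the cAMP response element, and the TATA box letters TATAAA in capitals. They begin 129 and 66 bases before the start for TGACG and 33 bases before it for TATAAA. Btg2 lies at chr1:134079106-134079405 (minus strand), with the full element TGACGTCA in capitals. Zfp36 lies at chr7:28379179-28379478 (minus strand), with a CArG box, the letters that serum response factor binds, in capitals.
Fos: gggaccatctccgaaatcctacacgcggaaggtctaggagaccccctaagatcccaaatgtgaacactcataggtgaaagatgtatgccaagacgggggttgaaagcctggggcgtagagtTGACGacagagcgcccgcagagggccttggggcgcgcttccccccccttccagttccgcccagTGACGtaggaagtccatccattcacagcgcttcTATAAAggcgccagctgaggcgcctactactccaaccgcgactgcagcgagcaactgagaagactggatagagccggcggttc
Btg2: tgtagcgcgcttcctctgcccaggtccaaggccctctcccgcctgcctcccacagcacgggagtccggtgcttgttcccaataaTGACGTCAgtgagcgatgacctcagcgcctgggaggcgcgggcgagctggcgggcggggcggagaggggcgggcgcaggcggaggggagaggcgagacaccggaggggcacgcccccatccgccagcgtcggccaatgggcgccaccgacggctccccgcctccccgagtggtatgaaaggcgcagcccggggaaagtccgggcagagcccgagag
Zfp36: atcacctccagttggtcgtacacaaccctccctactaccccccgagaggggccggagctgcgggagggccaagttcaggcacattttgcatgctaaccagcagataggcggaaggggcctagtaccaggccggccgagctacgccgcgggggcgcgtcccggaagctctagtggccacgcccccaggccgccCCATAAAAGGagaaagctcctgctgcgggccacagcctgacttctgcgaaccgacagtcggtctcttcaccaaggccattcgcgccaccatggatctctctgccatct

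Promoters of 31 of the 38 members were in the RefSeq table, which holds 27025 genes. The letters TGACG, searched on both strands and contained in the full element, were present in 16 of the 31 (51.6%) against 23.05% of all genes, among them 5 of the 8 AP-1 factors with a promoter (Fos, Fosb, Junb, Atf3 and Maff). The full element TGACGTCA was present in 4 (Maff, Dusp1, Btg2 and Ppp1r15a, 12.9%) against 2.03% of all genes. The AP-1 site TGACTCA occurred in 0 of the 31 and in 5.95% of all genes, the CArG box in Zfp36 alone against 1.81%, and a heat shock element, GAA and its complement TTC alternating over 3 units with 2 free bases between them, in Hsph1 alone against 0.662%. TATAAA occurred in 7 (22.6%) against 15.7% of all genes. A match describes the letters of this window and was not tested as a binding site. Only exact letters were counted, so a gene without a match may still hold an imperfect site.

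Hspa1a and Hspa1b encode the inducible Hsp70 chaperone and lie side by side on chromosome 17. Their promoters, Hspa1a at chr17:34972107-34972406 and Hspa1b at chr17:34959189-34959488 (both minus strand), differed at 4 of 300 bases, which are in capitals.
Hspa1a: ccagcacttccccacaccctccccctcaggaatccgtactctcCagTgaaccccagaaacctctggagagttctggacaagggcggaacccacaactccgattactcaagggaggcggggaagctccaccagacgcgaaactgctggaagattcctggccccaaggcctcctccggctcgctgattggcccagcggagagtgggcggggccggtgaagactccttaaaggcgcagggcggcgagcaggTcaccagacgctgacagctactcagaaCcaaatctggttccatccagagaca
Hspa1b: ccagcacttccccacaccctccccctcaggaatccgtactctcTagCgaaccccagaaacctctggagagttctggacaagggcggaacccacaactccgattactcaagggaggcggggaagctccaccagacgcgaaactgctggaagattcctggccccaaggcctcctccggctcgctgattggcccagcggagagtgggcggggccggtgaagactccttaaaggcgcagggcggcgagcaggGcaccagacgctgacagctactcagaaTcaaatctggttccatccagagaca
Of all windows of 100 bases along the annotated Hspa1a transcript, 47.1% also occur without a change in that of Hspa1b, and 49.9% the other way round. How reads that match both were counted is not given in the sources used here, so the level of each gene of the pair is uncertain.

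Next, the members were compared between mSC-like and nm(R)SC-like cells, which each plate took from one pool of mice. Counts were summed per plate and class and tested with the edgeR quasi-likelihood test with the plate as a block, over all 13183 genes that passed the filter on low counts. All 38 members passed that filter. Nr4a2 and Gadd45b were higher in mSC-like cells, and Cebpd, Myc and Hspa1a were higher in nm(R)SC-like cells. These are 2 and 3 of 38 members, beside 2.47% and 2.41% of all genes tested. None of the AP-1 factors was among them, with 1 of the 9 at an unadjusted p under 0.05 by edgeR and none called by DESeq2. The fit rests on 4 sums and leaves 1 residual degree of freedom. Without the plate as a block, or with a minimum of 2500 genes per cell, only Nr4a2 remained called.

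Nr4a2, an orphan nuclear receptor, had 514 CPM in mSC-like cells of plate 1 and 491 in plate 2, while nm(R)SC-like cells had 114 and 80.3 CPM. Its log2 ratio of mSC-like over nm(R)SC-like was 2.595 ± 0.399 (SE, adjusted p = 0.00273 by edgeR). It had 496 and 471 CPM in plates 1 and 2 of the Mfap5-led cluster and 551 and 499 CPM in the Ncmap-led cluster. After each cell was thinned to 100000 reads, 74.0% of mSC-like cells of plate 1 (95% exact binomial interval 64.0 to 82.4) and 73.2% of plate 2 (61.4 to 83.1) had at least 5 reads of Nr4a2, against 33.9% (25.7 to 42.8) and 21.9% (16.9 to 27.6) of nm(R)SC-like cells. These intervals cover counting error only.

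Gadd45b, a stress-inducible regulator of growth arrest and MAP kinase signalling, had 102 and 156 CPM in mSC-like cells while nm(R)SC-like cells had 13.8 and 0.233 CPM. The 2 plates differed widely within nm(R)SC-like cells, where plate 2 held 36 reads and plate 1 held 605. The log2 ratio was 6.26 ± 1.53 (SE, adjusted p = 0.0386 by edgeR), with 2.79 in plate 1 and 6.99 in plate 2. It was not called under 5 of the 9 alternatives, with adjusted p-values up to 0.203.

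Cebpd, a C/EBP transcription factor, had 91.7 and 235 CPM in mSC-like cells, and nm(R)SC-like cells had 1097 and 1451 CPM, a log2 ratio of -2.90 ± 0.417 (SE, adjusted p = 0.00183 by edgeR). At least 5 thinned reads of Cebpd were present in 15.6% and 23.9% of mSC-like cells, against 81.1% and 63.2% in the nm(R)SC-like class. A single cell held 41.3% of its reads in mSC-like cells of plate 1. Spidr overlaps it on the other strand, so its reads may be shared.

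Myc, a regulator of growth and proliferation, had 2.69 and 1.42 CPM in mSC-like cells, and nm(R)SC-like cells had 46.4 and 59.2 CPM, a log2 ratio of -4.54 ± 1.07 (SE, adjusted p = 0.0316 by edgeR). It had at least 5 thinned reads in 22.05% and 9.09% of nm(R)SC-like cells. The nm(R)SC-like cells include a cluster of 29 led by cell-cycle genes, and without that cluster the adjusted p of Myc was 0.0584 by edgeR with a ratio of -4.57. Without integration of the plates before clustering the ratio of Myc was -0.23.

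Hspa1a had 27.2 and 51.5 CPM in mSC-like cells, and nm(R)SC-like cells had 107 and 293 CPM, a log2 ratio of -2.04 ± 0.452 (SE, adjusted p = 0.0234 by edgeR). Its near copy Hspa1b had 8.63 and 34.0 CPM against 31.05 and 169 CPM, with a ratio of -1.88 ± 0.569 (SE) that missed the threshold (adjusted p = 0.106 by edgeR). Both genes were lower in mSC-like cells on each plate. Gm20481 overlaps Hspa1a on the other strand. Within plate 2 nm(R)SC-like cells, Hspa1a reached 394 CPM in the cluster led by Apoe and Aldh1a1 and 105 CPM in the cluster led by Ednrb. In plate 1 these clusters lay closer together, at 135 and 98.7 CPM.

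The members closest to the threshold on the other side were Dusp6, a phosphatase of ERK, at -1.87 ± 0.485 (SE, adjusted p = 0.0521 by edgeR), and Zfp36 at -1.29 ± 0.383 (SE, adjusted p = 0.0972). Both had lower values in mSC-like than in nm(R)SC-like cells on each plate. The ratio of Fos was 0.69 ± 0.483 (SE, adjusted p = 0.660 by edgeR), and it changed sign between the plates, from -0.30 in plate 1 to 1.27 in plate 2. Over the 33 members at a mean of 10 CPM or more, 14 had lower values in mSC-like cells on both plates and 5 had higher values on both, beside 39% and 23.9% of all genes. Within the heat-shock genes 4 of 5 were lower in mSC-like cells on both plates and none was higher on both. The 4 include Hspa1a and Hspa1b, whose separate levels are uncertain as described above. Of 18 heat-shock genes outside the module at the same level, 6 were higher and 4 lower in mSC-like cells on both plates.

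**Figure D2:**
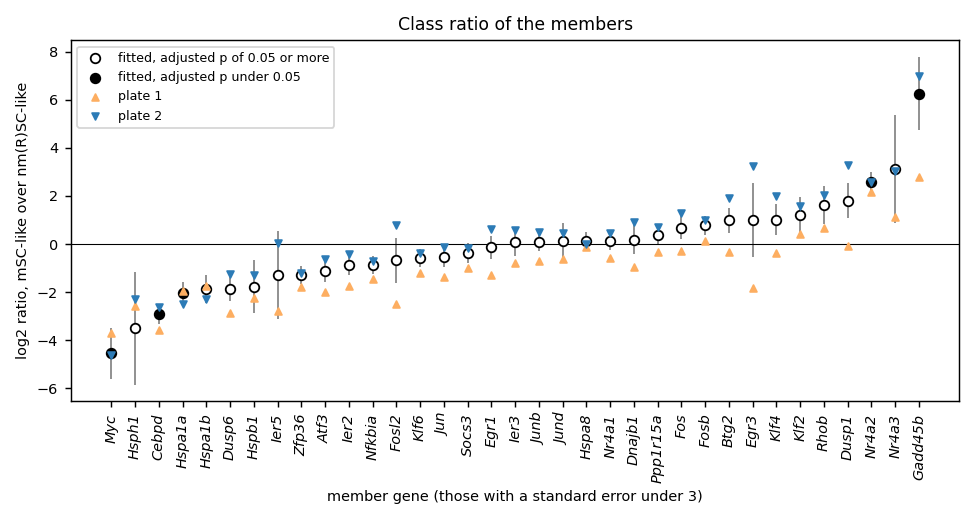
Log2 ratio of mSC-like over nm(R)SC-like cells for the members with a standard error under 3, ordered by the fitted ratio. Circles with bars are the edgeR ratio ± SE, filled where the adjusted p was under 0.05, and triangles are the ratios within plate 1 and plate 2. The filled circles are Myc, Cebpd, Hspa1a, Nr4a2 and Gadd45b, and for most members plate 2 lies above plate 1.

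The same test was read for 62 further genes of these pathways, of which 56 passed the filter. Of these, 3 were called higher and 2 lower in mSC-like cells, beside the same 2.47% and 2.41% of all genes. Among 17 further immediate early genes tested, Tiparp, an inducible ADP-ribosyltransferase, had 198 and 279 CPM in mSC-like cells against 39.2 and 96.2 CPM (ratio 2.14 ± 0.440 SE, adjusted p = 0.0154 by edgeR). Nab2, a co-repressor of the Egr factors, had 190.5 and 161 CPM against 34.9 and 13.3 CPM (3.23 ± 0.514 SE, adjusted p = 0.00334). Among 21 further feedback genes tested, the phosphatase gene Dusp8 was higher in mSC-like cells, at 162 and 152 CPM against 36.1 and 13.4 CPM (3.03 ± 0.538 SE, adjusted p = 0.00656). Spry2, an inhibitor of receptor tyrosine kinase signalling, had 123 and 143 CPM against 589 and 397 CPM (-1.66 ± 0.401 SE, adjusted p = 0.0365). Zfp36l1, a paralog of Zfp36, had 28.6 and 78.2 CPM against 322 and 266 CPM (-2.43 ± 0.508 SE, adjusted p = 0.0171). None of 18 further heat-shock genes was called by edgeR, with 3 at an unadjusted p under 0.05, beside 1776 of all 13183 genes.

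It was then asked which cells express the members. Over cells thinned to 100000 reads, at least 5 reads of Fos were present in 92.7% of mSC-like cells of plate 1 (95% exact binomial interval 85.6 to 97.0), 94.4% of plate 2 (86.2 to 98.4), 95.3% of plate 1 nm(R)SC-like cells (90 to 98.2) and 66.1% of plate 2 (59.8 to 72.1). Junb reached 72.9%, 83.1%, 78.0% and 54.1%, and Hspa8, which encodes the constitutive Hsc70 chaperone, 89.6%, 88.7%, 91.3% and 73.6%. By contrast, Hspa1a was at 13.5%, 12.7%, 25.98% and 24.4%. At least 5 reads of Fosl1 were found in 0 of 96 mSC-like cells of plate 1, which allows a share of up to 3.13% (3 cells of the total), and in 0 of the 242 from the nm(R)SC-like class of plate 2, a limit of 1.24%. These limits concern cells with that many reads and not cells that express the gene. For Fos, Junb and Hspa8 the plate 2 nm(R)SC-like cells were the lowest of the 4 groups.

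Cells of plate 1 share index names, and reads can pass between such cells. A single cell held 5136 of the 5193 Gsg1l reads in plate 1. A Gsg1l read was also seen in 22 of the 38 cells with an index name in common with it, against 3 of the 345 others. A sharing cell held on average 0.0277% of the source cell's reads. With the exchange expected at this rate subtracted, Fos was at 80.2% of mSC-like and 85.8% of plate 1 nm(R)SC-like cells, and Hspa8 at 89.6% and 89.8%.

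The summed level of the 9 AP-1 factors, most of whose reads came from Fos, spanned a wide range from cell to cell. The median of this summed level was 5810.0 CPM in mSC-like cells of plate 1, 20580.0 in plate 2, 7490.0 in plate 1 nm(R)SC-like cells and 1645 in plate 2. In the last group the 10th percentile was 30.0 and the 90th percentile 34200.0 CPM, with 41.7% of 242 cells under 1000 CPM and 32.6% at 10000 CPM or more. Fos alone had a median of 135 CPM and an upper quartile of 10673 CPM there, although its summed level of 6854 CPM was close to the 6975 CPM of plate 1. Thus nearly equal sums came from different distributions over cells. In plate 2 the share of cells under 1000 CPM was 42.1% in the Apoe-led cluster and 38.1% in the Ednrb-led cluster. In plate 1 these shares were 34.6% and 9.43%. The Mfap5-led cluster had 41.3% of cells under 1000 CPM in plate 1 and 25% of 20 cells in plate 2. The Ncmap-led cluster had 3.03% and 7.84%.

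The summed level of the 6 heat-shock genes had medians of 640.0, 1380.0, 940.0 and 1340.0 CPM. Its 10th percentiles were 105, 80.0, 158 and 30.0 CPM and its 90th percentiles 1395, 3060.0, 2020.0 and 3599 CPM, so that this level also varied widely from cell to cell. Its median in nm(R)SC-like cells was higher in plate 2 than in plate 1, whereas that of AP-1 was lower. Hspa8 carried most of this level, with 679, 1413, 739 and 1415 CPM in the 4 sums. The highest heat-shock share of any kept cell, 11.5% of its reads, was in an nm(R)SC-like cell of plate 2 with 10519 reads, 1204 of them from Hspa8.

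**Figure D3:**
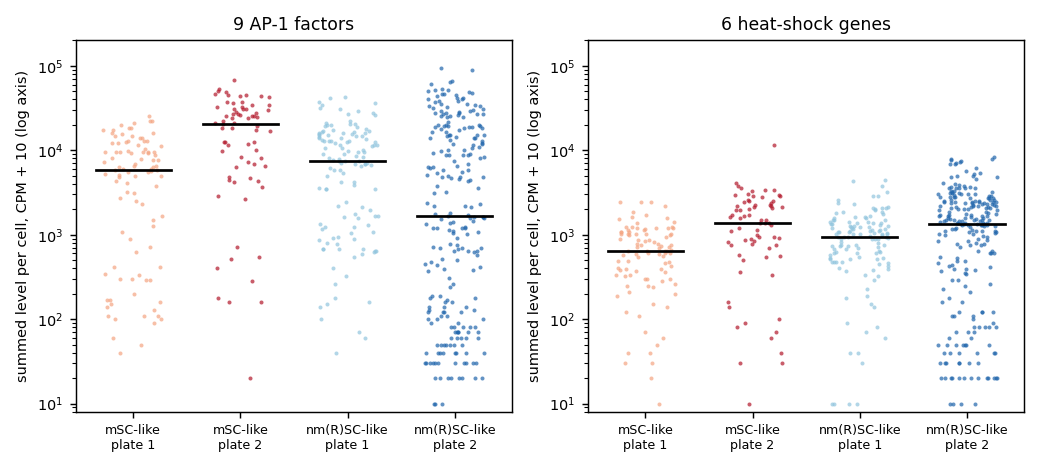
Summed level per cell of the 9 AP-1 factors (left) and of the 6 heat-shock genes (right), in CPM plus 10 on a log axis, after thinning to 100000 reads. Each point is 1 cell and each bar the median of its group. AP-1 levels of plate 2 nm(R)SC-like cells run from 0 to 93440.0 CPM around a median of 1645, and heat-shock levels of the same cells have 10th and 90th percentiles of 30.0 and 3599 CPM around a median of 1340.0.

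To see whether the members vary together, Spearman's rho was computed across thinned cells within each class and plate (96, 71, 127 and 242 cells). These values are descriptions, since cells of a plate share their preparation. Of the members, 20 were read in at least 25% of the cells of every group, among 1593 genes. Fos and Egr1, a zinc-finger immediate early factor, were the closest pair, with rho of 0.73, 0.75, 0.84 and 0.83. Fos and Junb followed with 0.73, 0.59, 0.79 and 0.80, then Fos and Jun with 0.71, 0.54, 0.68 and 0.71, and Fos and the antiproliferative gene Btg2 with 0.53, 0.62, 0.53 and 0.61. Fos and Ier2 had 0.53, 0.53, 0.75 and 0.71. The median over AP-1 pairs was 0.44, 0.37, 0.53 and 0.59, and over all pairs of the 1593 genes 0.05, 0.03, 0.04 and 0.04.

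At the level of the summed groups, AP-1 had rho of 0.73, 0.67, 0.80 and 0.63 with the feedback regulators and 0.78, 0.73, 0.77 and 0.51 with the other immediate early factors. With the heat-shock genes it had 0.20, 0.15, 0.24 and 0.35. Fos alone had rho of 0.99, 0.99, 0.98 and 0.87 with the AP-1 level, so values for this level describe mainly Fos. Of the heat-shock genes only Hspa8 and Dnajb1, a co-chaperone of Hsp70, reached the detection limit, and their pairs with other members had medians of 0.11, 0.08, 0.14 and 0.12. In plate 2 nm(R)SC-like cells the AP-1 level had rho of 0.34 with the number of genes detected and 0.00 with total reads. In mSC-like cells of plate 2 its rho with detected genes was -0.26. With the mitochondrial share of a cell, the AP-1 level had rho of 0.33, 0.09, 0.00 and -0.02. The part of detected genes and of the mitochondrial share in the co-variation was not tested.

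Not all regulators followed AP-1. Zfp36 had rho of 0.52, 0.42, 0.78 and 0.73 with the summed AP-1 level and Socs3, an inhibitor of cytokine receptor signalling, 0.52, 0.38, 0.69 and 0.73. Nfkbia, which encodes the inhibitor of NF-κB, had 0.02, 0.11, 0.03 and 0.06. Ppp1r15a, whose product reverses the stress-induced block of translation, had 0.33, -0.06, 0.13 and 0.14. Nr4a2 had 0.47, 0.17, 0.20 and -0.07, and Cebpd 0.19, 0.14, 0.31 and 0.39. Ranked by the lowest of the 4 rho, 11 of the 15 members outside AP-1 were among the top 50 of the 1593 genes.

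The 10 genes outside the module closest to the AP-1 level were, by the lowest of their 4 rho, H3f3b (0.34 to 0.55), Ptma (0.27 to 0.57), Actb (0.26 to 0.35), Rpl13a (0.26 to 0.32), Gm45713 (0.25 to 0.28), Plekhb1 (0.22 to 0.36), Ubb (0.21 to 0.43), Actg1 (0.21 to 0.27), Zfp36l1 (0.20 to 0.29) and Eef1a1 (0.18 to 0.49). They include the replication-independent histone gene H3f3b, the cytoplasmic actins, the polyubiquitin gene Ubb and the translation elongation factor Eef1a1.

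**Figure D4:**
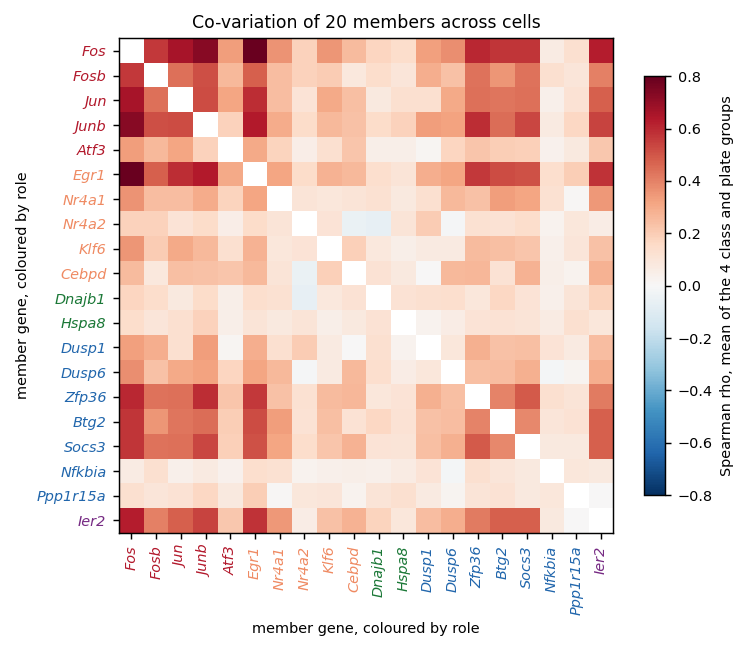
Spearman's rho between 20 members across cells, as the mean over the 4 class and plate groups. Red is positive and blue negative, and gene names are coloured by role. Fos, Fosb, Jun, Junb, Egr1, Zfp36, Btg2, Socs3 and Ier2 form the strongly coloured rows, whereas Nr4a2, Dnajb1, Hspa8, Nfkbia and Ppp1r15a stay pale.

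Last, the plates were compared within each class. Each plate is 1 sample, so there is no test, and a gene was counted when its level differed at least 2-fold in the same direction in both classes, among 8934 genes at a mean of 10 CPM or more. Of the 33 members at this level 5 were higher in plate 2 (Jun, Klf6, Hspa1b, Hspb1 and Nfkbia), beside 2.93% of all genes, and 0 were higher in plate 1, beside 8.06%. The median gene had a log2 ratio of plate 2 over plate 1 of -0.15 in mSC-like and -0.17 in nm(R)SC-like cells. With TMM scaling these medians were 0.06 and 0.10, and 7 members were counted beside 5.61% of all genes. The plates differed in depth, detected genes and mitochondrial share as given above and in the mice used, and these cannot be told apart here.

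Jun had 271 CPM in mSC-like cells of plate 1, 1329.9 in plate 2, 706.4 in plate 1 nm(R)SC-like cells and 1441 in plate 2, log2 plate ratios of 2.29 and 1.03. Klf6, a Krüppel-like factor, had 463, 2035, 1069 and 2624 CPM (2.13 and 1.29). Nfkbia had 130.1, 463, 353 and 753 CPM (1.82 and 1.09). All 3 were higher in plate 2 in both classes. Their counting intervals did not overlap, which at this depth follows from a 2-fold difference and does not measure the spread between plates. Klf6 and Hspa1b were counted under each alternative other than a 4-fold rule. Jun was not counted after thinning to 100000 reads or without the cell-cycle cluster, and Nfkbia was not counted without integration or within the Ncmap-led and Apoe-led clusters.

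Hspa1b had plate ratios of 1.86 and 2.40 on the log2 scale. Hspb1, a small heat-shock protein gene, had 2.69, 16.3, 16.4 and 41.6 CPM (2.23 and 1.29). A single cell held 84.4% of its reads in mSC-like cells of plate 2. With the cell that held most reads of each gene left out of every group, Hspb1 was no longer counted and Hspa8 was. Hspb1 was also not counted with a minimum of 2500 genes per cell, at a minimum of 50 CPM, or within the Ncmap-led and Apoe-led clusters. Hspa8 had ratios of 1.06 and 0.94.

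The groups differed in how the plates compared in the 2 classes. The 7 AP-1 factors at 10 CPM or more had a median log2 plate ratio of 1.55 in mSC-like cells, against -0.03 in the nm(R)SC-like class. The 5 heat-shock genes had 1.28 and 1.29, and the 8 feedback regulators 1.19 and 0.10. The 5 include Hspa1a and Hspa1b, whose separate levels are uncertain, and Dnajb1, which was lower in plate 2 in nm(R)SC-like cells. The value of 1.29 is that of Hspb1. With the cell that held most reads of each gene left out, the heat-shock medians were 1.16 and 1.27. Higher in plate 2 in both classes, at any size, were 3 of 7 AP-1 factors, 4 of 5 heat-shock genes and 5 of 8 feedback regulators, beside 23.7% of all genes, and lower in both were 1, 0 and 1 of them, beside 35.4%. At the same level, the 18 further heat-shock genes had median plate ratios of 0.02 and -0.30. Of these, 4 were higher in plate 2 in both classes and 7 were lower in both. The plate ratios of the heat-shock members were thus not shared by the further heat-shock genes as a set. The medians were 0.42 and -0.57 for 13 further feedback genes, and 0.29 and -0.57 for 10 further immediate early genes. Of the 33 members 21 were at least 2-fold higher in plate 2 in mSC-like cells (15% of all genes) and 6 in nm(R)SC-like cells (11.5% of all genes), where 7 were at least 2-fold lower (21.5% of all genes).

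The mSC-like cells of the 2 plates come mostly from different clusters, as described above. Within the Ncmap-led cluster and the Apoe-led cluster, the AP-1 medians were 0.97 and 0.04, the heat-shock medians 1.60 and 1.05 and the feedback medians 0.79 and -0.15. With a minimum of 2500 genes per cell the AP-1 medians were 0.58 in mSC-like and 0.29 in nm(R)SC-like cells, and without integration of the plates they were 0.59 and 0.05. Fos had 3629 and 10212 CPM in plates 1 and 2 of the Mfap5-led cluster and 9778 and 19112 CPM in the Ncmap-led cluster.

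Fos itself had a log2 plate ratio of 1.55 in mSC-like cells (5649.8 and 16556 CPM) and -0.03 in nm(R)SC-like cells (6975 and 6854 CPM). Junb had 580.5, 2107, 942 and 1499 CPM, with ratios of 1.86 and 0.67. Among the other immediate early factors, Nr4a1, an orphan nuclear receptor, had 558, 1554, 835 and 1132 CPM (1.48 and 0.44), and Egr1 had 367, 992, 898 and 649 CPM (1.43 and -0.47). Plate 2 was thus above plate 1 for all 4 genes in mSC-like cells, while in nm(R)SC-like cells the ratios lay on both sides of 0.

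Among the feedback regulators Btg2 had 285, 1875, 358 and 504 CPM (2.72 and 0.49), the largest plate ratio of any of the 33 members in mSC-like cells. Zfp36 had 224, 209, 777 and 478 CPM (-0.10 and -0.70). Dusp1, a phosphatase that inactivates p38 and JNK, had 307, 747, 328 and 75.3 CPM (1.28 and -2.11), so that its level in plate 2 was above that of plate 1 in mSC-like cells and below it in nm(R)SC-like cells. It overlaps Ergic1 on the other strand. Dnajb1 had 43.5, 107, 85.2 and 56.5 CPM (1.28 and -0.58). Ier2 had 118, 468, 398 and 615 CPM (1.98 and 0.63), Ier3 had 43.3, 74.98, 75.03 and 50.3 CPM (0.78 and -0.57), and Rhob, a small GTPase gene, had 49.1, 49.5, 30.7 and 11.2 CPM (0.01 and -1.38). Of the 5 members called between the classes, Nr4a2 had plate ratios of -0.07 and -0.50, Gadd45b 0.61 and -3.59, Cebpd 1.35 and 0.40, Myc -0.61 and 0.34, and Hspa1a 0.90 and 1.45.

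**Figure D5:**
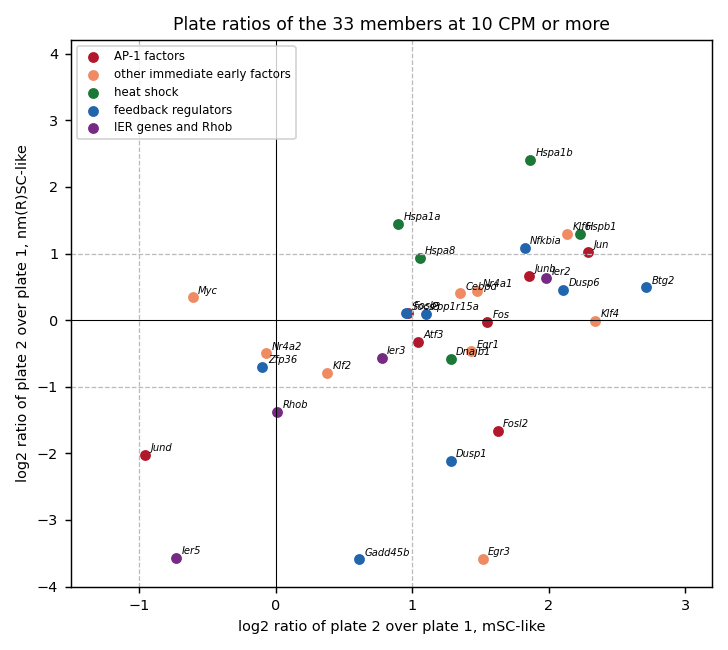
Log2 ratio of plate 2 over plate 1 in mSC-like cells (horizontal) and in nm(R)SC-like cells (vertical) for the 33 members at a mean of 10 CPM or more, coloured by role. Dashed lines mark 2-fold. Most members lie to the right of 0, and Jun, Klf6, Hspa1b, Hspb1 and Nfkbia lie past the 2-fold lines in both classes.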

How the data were processed

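The authors sorted eYFP-positive cells into 384-well plates, prepared Smart-Seq2 libraries and deposited raw read counts per gene and cell, without normalisation. Per the submitters' processing notes these came from bcl2fastq, STAR 2.6.1c, featureCounts and the build GRCm38.p5. The study's methods name a human build and another STAR version, but the identifiers are those of mouse. Of 25700 identifiers 25587 were matched to symbols with the GENCODE M21 annotation of GRCm38. The members, although named without a measured threshold, and the gene lists were chosen with earlier results of these data known.

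Cells with at least 1500 detected genes were clustered with Seurat 5.3.0 (scaling to 100000, CCA integration of the plates with 12 dimensions, resolution 0.5). The members and the further lists were left out of clustering, and all other genes were tested between classes built from genes other than themselves. Clusters were named from 20 fixed markers. No doublet caller was run. Counts were summed per plate and class and tested with edgeR 4.0.16 (quasi-likelihood, TMM, a block for the plate, filterByExpr at its default of 10 counts, Benjamini-Hochberg adjustment over all genes). The plate pairs the classes because both were sorted from the same mice. Plate ratios use log2(CPM + 1). Shares and rho used cells thinned to 100000 reads, which leaves out shallower cells. The sums held 30433678 to 154144680 reads. Since Smart-Seq2 reads are not independent molecules, intervals cover counting error only. The edgeR step was run on simulated counts with large changes set in abundant genes and the same dispersion for every gene. That setting is easier than these data and does not measure how reliable the calls are. Plate 2 and plate 1 were not compared by a test.

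Members named with values were the called members, those past the plate rule, and the 3 with the highest mean CPM in each role group. Dusp1, Dusp6, Socs3, Ppp1r15a, Egr3, Fosl1, the class values of Hspa1b and the values by cluster were added after the values were seen. Alternatives were DESeq2 1.42.0, other scaling, filters, cell minimums, no integration, no block, thinning, and leaving out a plate or the top cell.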

Additional observations from a re-analysis of the deposited data

Results flagged for a closer look

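The class difference had opposite signs on the 2 plates, by at least 2-fold on each, for Egr3, a zinc-finger factor induced after Egr1. Its log2 ratio of mSC-like over nm(R)SC-like was -1.85 in plate 1 and 3.26 in plate 2. It had 17.3 and 51.4 CPM in mSC-like cells of plates 1 and 2 while the nm(R)SC-like class had 64.8 and 4.49 CPM, and a single cell held 41.2% of its reads in mSC-like cells of plate 1. Since each plate is 1 sample, the difference between the plates was not tested.

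Cells under the minimum of 1500 detected genes entered no comparison. In the 44 such cells of plate 1 the 38 members took 1.36% of 105291 reads, and in the 50 of plate 2 they took 2.51% of 1034231 reads.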

How the results depend on the processing

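The number of members called higher in mSC-like cells was 1 in place of 2 with RLE size factors, without the replicate block, with 1000 or 2500 genes per cell and without the cell-cycle cluster, the last chosen after seeing the data. In each case the one left was Nr4a2. The number called higher in nm(R)SC-like cells was 6 with DESeq2, 1 without integration, and 0 by edgeR without the block or with 2500 genes per cell, where 7 and 11 members had an unadjusted p under 0.05 in either direction. With 1 plate left out the ratios have no test and ranged from 2.17 to 2.596 (Nr4a2), 2.79 to 6.99 (Gadd45b), -3.57 to -2.62 (Cebpd), -4.63 to -3.68 (Myc) and -2.48 to -1.94 (Hspa1a). No member counted as higher in plate 2 passed a 4-fold rule (0). Higher in plate 1 were 1 with 2500 genes per cell, 2 without integration and 1 within the Ncmap-led and Apoe-led clusters, where feedback regulators higher in plate 2 numbered 3 in place of 5; the cluster setting was also chosen after seeing the data.

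Shares, as means of the plates, follow the minimum read number by construction. Fos in mSC-like cells went from 93.5% to 99.3% (1 read), 88.7% (10), 79.8% (50), 91.6% (thinned to 50000) and 87.3% (exchange subtracted). Hspa8 went from 89.2% to 97.5% (1), 86.5% (10) and 64.8% (50) in mSC-like and from 82.4% to 62.7% (50) in nm(R)SC-like cells. The median over members went from 23.7% to 44.6%, 18.99%, 6.75% and 19.3% (1, 10 and 50 reads, thinned to 50000) in mSC-like and from 28.5% to 43.6% and 8.48% (1 and 50 reads) in nm(R)SC-like cells. The 50-read and exchange settings were chosen after seeing the data. The mean of the AP-1 pair medians, 0.48, was 0.45 with Pearson's r and 0.55 after thinning to 50000 reads, and that of heat-shock genes with other members was 0.14 with Pearson's r in place of 0.11. Across all results 15 alternative values kept their direction but lost the call, 35 moved beyond the limit set for a change and 137 did neither. A reversal could be recorded only for the class ratios of the called members, and none was found. Leaving out a plate could not move a share or a rho beyond its limit. A 4-fold rule could not change the group counts at any size. The 137 are therefore in part fixed by these definitions and do not measure stability. With 1 sample per plate and class and the plate as a block, the test weighs a class ratio against its variation between the plates. It leaves 1 residual degree of freedom, so members that were not called may still differ.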

Other observations

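Some genes varied against the AP-1 level in each of the 4 groups. Cd9 had rho of -0.19, -0.22, -0.25 and -0.18 with the summed AP-1 level, in the order of the groups used above. The myelin and lymphocyte protein gene Mal had -0.36, -0.13, -0.14 and -0.13, and Cd81 had -0.39, -0.34, -0.12 and -0.16. These 3 were picked after their values were seen and are descriptions across cells.

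Within nm(R)SC-like cells, Dusp1 and Egr3 were lower in the cluster led by Apoe and Aldh1a1 than in that led by Ednrb on both plates. Dusp1 had 87.9 and 17.6 CPM in the first and 624 and 188 CPM in the second, and Egr3 had 4.47 and 0.399 CPM against 132 and 12.3 CPM. In plate 2 these levels rested on a small part of the cells. Over thinned nm(R)SC-like cells of plate 2, the 90th percentile was 20 CPM for Dusp1 and 0 CPM for Egr3. Their highest cells had 8680 and 470 CPM. Cebpd was higher in the Apoe-led cluster, at 1335 and 1626 CPM against 721.3 and 1132 CPM. The clusters were built without these genes, and the differences were not tested.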
